A study of Mus musculus with 4 samples.

Results

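Ribosome biogenesis factors are the proteins that transcribe, cut, modify and fold ribosomal RNA in the nucleolus and assemble it with ribosomal proteins. The set described here was a named list of 40 genes for RNA polymerase I, small nucleolar ribonucleoproteins (snoRNPs) and pre-ribosome assembly. All 40 matched a single Ensembl gene, out of 37224 genes in the deposited tables, and all 40 passed the filter on low counts. RNA-seq libraries came from Smg6-deficient mouse embryonic stem (ES) cells (2 libraries) and from wild-type ES cells (2 libraries). Smg6 is the endonuclease that cuts transcripts marked by nonsense-mediated mRNA decay (NMD), which degrades messages with an early stop codon. The labels give no treatment, time, strain or cell line name, do not say how Smg6 was lost. Nor do they say whether replicate libraries are from separate cultures, so every p-value rests on a spread that may be technical. The comparison asks which transcripts differ in level without Smg6.

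Deposited counts summed to between 137937779 and 155391181 in the Smg6-deficient libraries and between 130888768 and 137643993 in the wild-type libraries. The lowest level of any listed factor in any library was 24.7 CPM (counts scaled to the size of each library). Smg6 itself stood at 87.6 and 86.2 CPM in Smg6-deficient cells, against 95.7 and 105 CPM in wild-type cells (log2 fold change -0.21, SE 0.083, edgeR adjusted p = 0.0886). It was called lower in 4 of 15 alternative analyses, with library size alone (edgeR adjusted p = 0.044), with a correction for gene length without (-0.38, 0.00766) and with the replicate number as a term (-0.38, 0.00288), and leaving out wild-type replicate 1 (-0.27, 0.0134). A count over the whole gene does not check the loss of some exons. All 7 markers of pluripotent cells were counted in every library. Their summed level was 2507 CPM in both Smg6-deficient libraries, against 4174 and 3609 CPM in the wild-type libraries, and 5 of the 7 were lower, Sox2 did not pass and Utf1 was higher (0.98 on the log2 scale, edgeR adjusted p = 0.00224). The 8 endoderm markers summed to 210.2 and 405.7 CPM in Smg6-deficient cells, against 19.5 and 15.3 CPM in wild-type cells, and 7 of the 8 were higher and Afp was lower. Afp and Ttr, which counts among the higher ones, were near the floor, with highest values of 0.583 and 0.374 CPM in any library. The 8 fibroblast markers, of the feeder cells on which ES cells are often grown, summed to 1189 and 1115 CPM in Smg6-deficient cells, against 965 and 713 CPM in wild-type cells. Of the 8, Col1a1 and Pdgfra were higher and the others did not pass. Col1a1 was near the threshold (edgeR adjusted p = 0.0489) and called in 7 of 15 alternatives. Pdgfra had 43.1 and 70.6 CPM in Smg6-deficient cells, against 13.9 and 9.92 CPM in wild-type cells. Like the endoderm sum, and unlike the fibroblast sum, Pdgfra was higher in Smg6-deficient replicate 2 than in replicate 1. The cell source of Pdgfra was not tested. In bulk RNA, fewer cells of a type and less RNA per cell cannot be told apart. The part of these marker differences in the results below was not tested.

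As background, RNA polymerase I copies the ribosomal DNA into a long precursor. Box C/D snoRNPs methylate it and box H/ACA snoRNPs convert chosen uridines to pseudouridine. A large particle, the small subunit processome, folds and cuts the small subunit part of the precursor, and a separate set of factors assembles the large subunit. In dividing cells such as ES cells this pathway is highly active, and many of its genes are known targets of the transcription factor Myc.

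In Smg6-deficient cells 19 of the 40 factors were higher and 2 lower, and 19 did not pass the threshold of an edgeR adjusted p under 0.05. Over all 20895 genes tested, 20.5% were higher and 19.2% lower. Because 38 of the 40 factors lay among the 5224 genes with the highest mean levels, the shares in that class are the closer background, and there 26.7% were higher and 19.3% lower. The median log2 fold change of the factors was 0.25, beside 0.008 over all genes tested. Most changes were modest, since 14 of the 19 raised factors rose by less than 1.5-fold. The other 5 were Taf1d, at 4.10-fold, Utp20 (1.90-fold), Nop56 (1.89-fold), Rrp12 (1.60-fold) and Heatr1 (1.54-fold). All libraries of one group lay apart from those of the other for 28 factors that stood higher and 5 that stood lower in Smg6-deficient cells, against 37.3% and 35.9% of all genes. Of the 19 rises, 11 were called in each of the 15 alternative analyses, and of the 2 falls 0 were. Together the factors took 1.20% and 1.21% of the counts in the Smg6-deficient libraries, against 1.09% and 1.01% in the wild-type libraries.

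**Figure D1:**
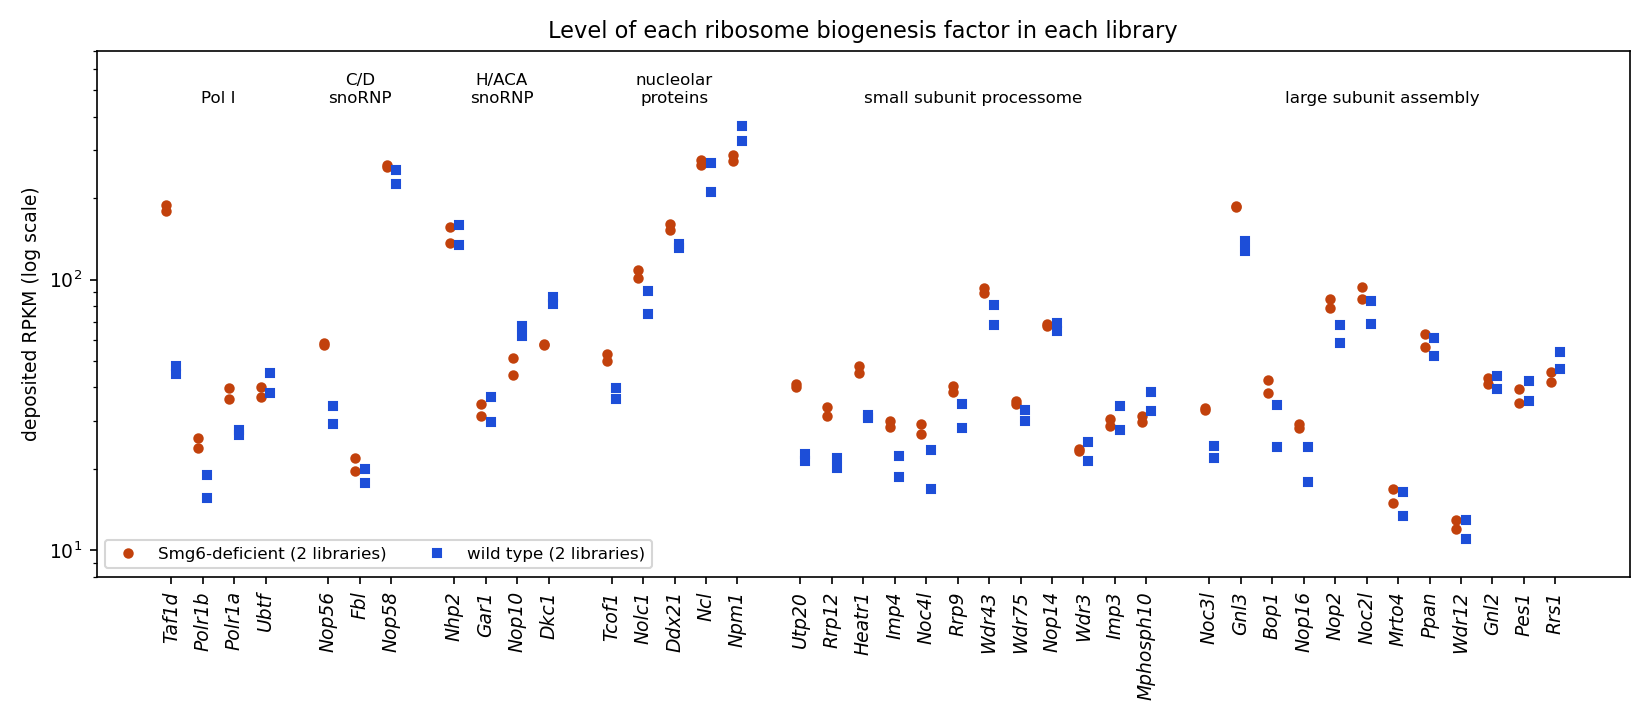
Deposited RPKM (reads scaled to gene length and library size, log axis) of each factor in each library, with circles for the 2 Smg6-deficient libraries and squares for the 2 wild-type libraries, grouped by role. The levels span from 12.2 RPKM for Wdr12 to 314 RPKM for Npm1, and Taf1d stands apart with both circles far above both squares.

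On the per-length RPKM scale, averaged over the 4 libraries, the level of Npm1 was the highest (314 RPKM), followed by those of Ncl (255 RPKM) and Nop58 (252 RPKM). Npm1 and Ncl, the chaperone nucleophosmin and the RNA-binding protein nucleolin, are abundant nucleolar proteins. Ncl had 275 and 266 RPKM in Smg6-deficient cells, against 269 and 210.0 RPKM in wild-type cells, and Nop58 had 261 and 265 RPKM, against 255 and 226 RPKM, so the order of this pair was within their spread. Gnl3 (160.0 RPKM), Nhp2 (146 RPKM) and Ddx21 (145 RPKM) came next, and the lowest levels were those of Fbl (19.9 RPKM), Mrto4 (15.4 RPKM) and Wdr12 (12.2 RPKM). The rank of Taf1d differed most plainly between groups: it had 179 and 189 RPKM in Smg6-deficient cells, in the range of Gnl3, against 47.9 and 44.8 RPKM in wild-type cells, in the range of Rrs1 (47.1 RPKM on average).

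Of the 40 genes, 16 have at least 1 annotated NMD transcript, a splice form in which an exon junction lies more than 50 nt after the stop codon, the arrangement that marks a message for NMD. These genes hold 32 such transcripts in GENCODE M21, with 60 to 1977 nt between the stop codon and the last junction. In 4 of the 32 the stop codon is one that an annotated coding transcript of the gene also uses, and in the others it is not. The stop codons are shown for the 6 of these genes that rose by the largest fold, 1 transcript each, with the stop codon in capitals after the last 24 coding bases. Each stop codon shown is one that no annotated coding transcript of the gene uses. Nop56 and Heatr1 also have annotated NMD transcripts, not shown, that end at a stop codon shared with a coding transcript. Coordinates of the first base of the stop codon are on GRCm38, the assembly that mm10 names.

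Taf1d (chromosome 9, 15312782, plus strand): gtgactattgaagaaggcttgtctTGAtta
Utp20 (chromosome 10, 88778199, minus strand): ggtgtgcgcagttcaccaagcacgTGAttc
Nop56 (chromosome 2, 130277494, plus strand): gaagcgagccctgaagacaaggggTAAcac
Heatr1 (chromosome 13, 12404898, plus strand): tcagcacattgcaggagaagaagcTGAagg
Imp4 (chromosome 1, 34443089, plus strand): agccacactggacaatttcccaccTGAtgg
Gnl3 (chromosome 14, 31016820, minus strand): tgccaggaacttaaaaaggtacctTAGtat

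All 4 annotated NMD transcripts of Taf1d end at the same stop codon, and the last junction follows it by 95 to 1252 nt. For the other transcripts shown the distance is 232 nt in Utp20, 385 nt in Nop56, 90 nt in Heatr1, 653 nt in Imp4 and 1075 nt in Gnl3. The deposited values are sums over a gene, so the share of such splice forms in these counts was not measured. Of the 16 factors with an NMD transcript, 12 were higher and 1 lower (median log2 fold change 0.49), and among all tested coding genes with one, 33.3% were higher and 14.6% lower. Of the 24 factors without one, 7 were higher and 1 lower (median 0.12), and the coding genes that lack one had 20.7% higher and 22.3% lower. The factors with an NMD transcript that were not higher were Nop58, Ppan, Wdr3 and the lower Dkc1. Small nucleolar RNA genes lie inside 8 of the factors on the same strand, 29 in all, with 8 in Taf1d, 5 in Nop56 and 4 in Nop58. Of these 8 factors 4 were higher (Taf1d, Nop56, Gnl3 and Wdr43) and 1 lower (Dkc1), against 33.5% and 17.7% of all coding genes with such an RNA inside. Of the 32 factors without one, 15 were higher and 1 lower, and the coding genes that lack one had 23.7% higher and 20.4% lower.

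**Figure D2:**
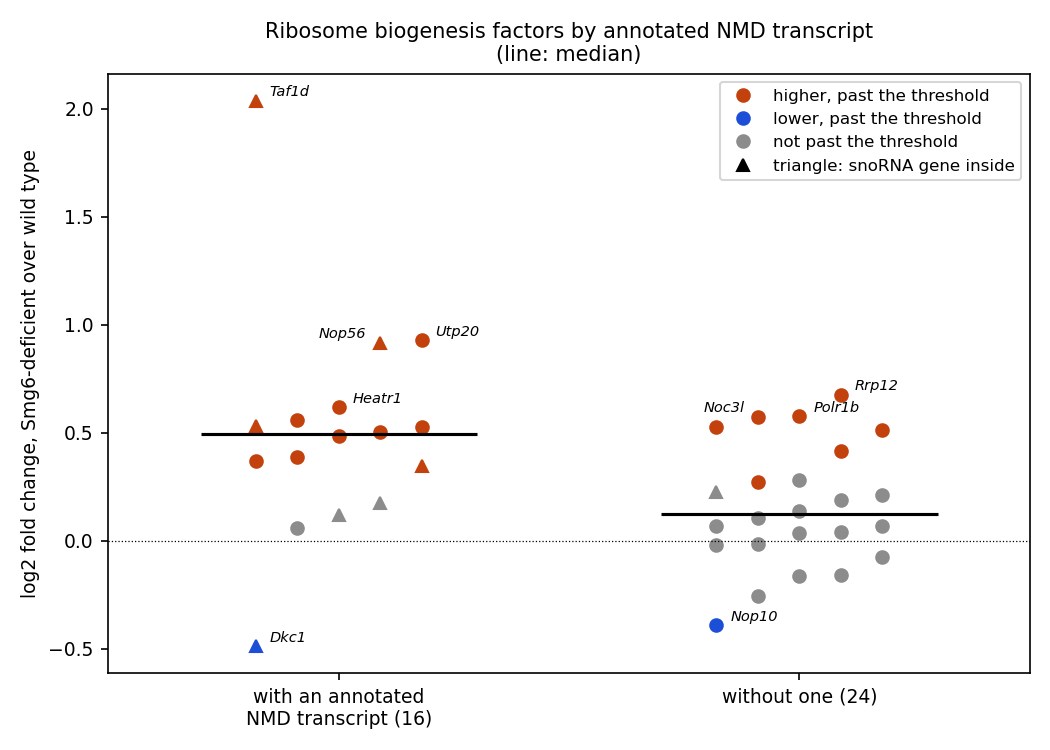
Log2 fold change, Smg6-deficient over wild type, of the 16 factors with an annotated NMD transcript and the 24 without one, with colour for the call, triangles for genes with a snoRNA inside and a line at the median. Among them, 12 of the 16 and 7 of the 24 are higher, with medians of 0.49 and 0.12.

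Transcription of ribosomal DNA was represented by Taf1d, Polr1a, Polr1b and Ubtf, of which 3 rose. Beside this count and those of the roles below, 20.5% of all genes tested were higher and 19.2% lower. Among the 5224 genes with the highest mean levels, 26.7% were higher and 19.3% lower. No role was tested against these shares. Taf1d (ENSMUSG00000031939; chromosome 9, 15306214 to 15316991, plus strand) encodes a subunit of the selectivity factor that brings RNA polymerase I to the ribosomal DNA promoter. It stood at 285 and 316 CPM in Smg6-deficient cells, against 73.3 and 73.1 CPM in wild-type cells (log2 fold change 2.04, SE 0.088, edgeR adjusted p = 9.5e-05). Both Smg6-deficient libraries lay far above both wild-type libraries, and over all alternatives the log2 fold change ranged from 1.96 to 2.11. Most of the Taf1d transcript (74.6%) is matched at 95% identity or more by 1 processed pseudogene, Gm13487, which itself had 9991 and 9492 counts in Smg6-deficient cells against 2160 and 2012 in wild-type cells, so reads of the pair may be shared. In GENCODE M21, exons of Taf1d also overlap those of Cep295 and 4931406C07Rik on the other strand, and the libraries did not mark strand. An overlap of this kind was present for 17 of the 40 factors, among them Nop56 with Idh3b, Gnl3 with Pbrm1, Heatr1 with Lgals8, Polr1a with Gm26628 and Dkc1 with Mpp1. The annotation behind the deposited counts is not given, so whether reads of the overlapping exons were counted is not known.

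The catalytic subunits of the polymerase rose by less. Polr1b, the second largest subunit, had 176 and 171 CPM in Smg6-deficient cells, against 124 and 109 CPM in wild-type cells (log2 fold change 0.58, SE 0.090, edgeR adjusted p = 0.00355). Polr1a, the largest subunit, had 284 and 273 CPM in Smg6-deficient cells, against 184 and 204 CPM in wild-type cells (log2 fold change 0.53, SE 0.087, edgeR adjusted p = 0.0043). Neither overlapped between the groups. Ubtf, which binds along active ribosomal DNA, had 307 and 297 CPM in Smg6-deficient cells, against 335 and 301 CPM in wild-type cells, ranges that overlap (log2 fold change -0.07, edgeR adjusted p = 0.536).

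**Figure D3:**
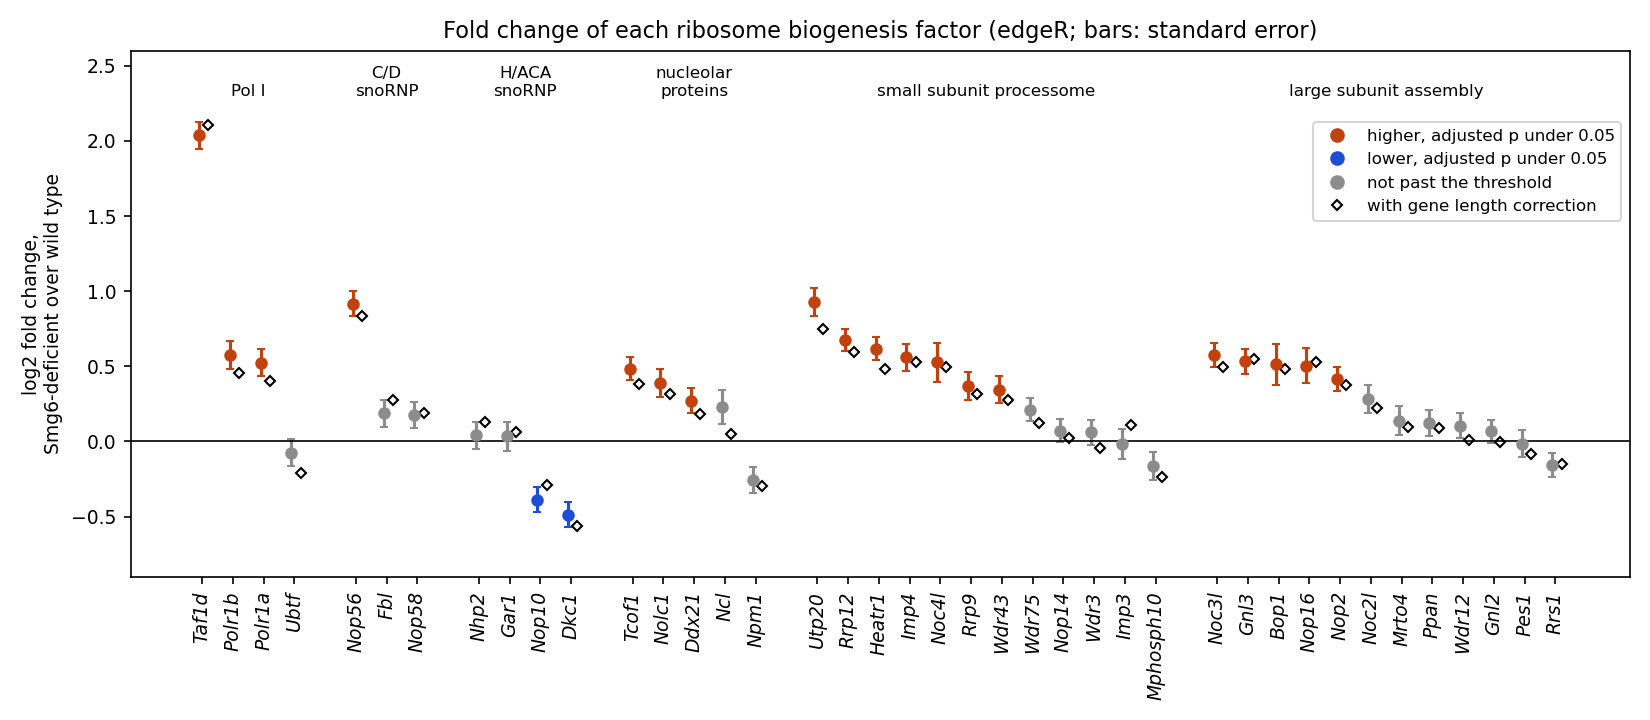
Log2 fold change, Smg6-deficient over wild type, of each factor from edgeR with its standard error, coloured by call, and the same value after a correction for gene length (diamonds), grouped by role. Taf1d, Utp20 and Nop56 stand highest, and Dkc1 and Nop10 are the ones called lower.

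The core of the box C/D snoRNP contains the methyltransferase fibrillarin (Fbl) and the paralogous scaffold proteins Nop56 and Nop58. Nop56 (chromosome 2, 130274430 to 130279313, plus strand) was the one that rose. It had 279 and 289 CPM in Smg6-deficient cells, against 157 and 144 CPM in wild-type cells (log2 fold change 0.92, SE 0.084, edgeR adjusted p = 0.000549). The groups did not overlap. Nop58 had 601 and 644 CPM in Smg6-deficient cells, against 567 and 535 CPM in wild-type cells. Its libraries did not overlap either, but a log2 fold change of 0.18 (SE 0.087) left it outside the threshold (edgeR adjusted p = 0.151). It was called in the fit that lacked wild-type replicate 1 (0.22, edgeR adjusted p = 0.0479). Fbl, at 29.8 and 28.0 CPM in Smg6-deficient cells, against 26.1 and 24.7 CPM in wild-type cells, stood at a log2 fold change of 0.19, outside the threshold (edgeR adjusted p = 0.149). It passed with the replicate number and the length correction together (0.28, edgeR adjusted p = 0.0385). Its level is uncertain, because a processed pseudogene, Gm5812, matches 984 nt of its transcript at 96.8% identity and held more counts than Fbl, 8795 and 7031 in Smg6-deficient cells and 8313 and 7172 in wild-type cells, beside 4542 and 3782 for Fbl in Smg6-deficient cells and 3653 and 3304 in wild-type cells.

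The box H/ACA snoRNP consists of the pseudouridine synthase dyskerin (Dkc1) with Nhp2, Nop10 and Gar1, and none of the 4 rose. Dkc1 (chromosome X, 75095854 to 75109777, plus strand) fell to 276 and 294 CPM in Smg6-deficient cells, against 399.5 and 400.3 CPM in wild-type cells (log2 fold change -0.49, SE 0.081, edgeR adjusted p = 0.00444). Dkc1 is the X-linked factor of the list, and of the 1040 genes of that chromosome that were tested, 56.7% were lower and 3.56% higher. Its fall was not called without Smg6-deficient replicate 1 (at -0.44 on the log2 scale, edgeR adjusted p = 0.0646). Nop10, on chromosome 2, fell to 66.2 and 60.8 CPM in Smg6-deficient cells, against 84.5 and 82.0 CPM in wild-type cells (log2 fold change -0.39, SE 0.083, edgeR adjusted p = 0.011). This call ended without Smg6-deficient replicate 2 (log2 fold change -0.33, edgeR adjusted p = 0.139) and, narrowly, by limma-trend on log2(RPKM + 0.1) (limma adjusted p = 0.0502). Nhp2 and Gar1 had log2 fold changes of 0.04 and 0.03, with libraries of the groups that overlapped, and their sign turned in 6 of the 15 alternatives.

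The next 5 factors are abundant proteins of the nucleolus with broad roles. Tcof1, known as treacle, which links RNA polymerase I transcription to rRNA modification, had 327 and 323 CPM in Smg6-deficient cells, against 236 and 229 CPM in wild-type cells (log2 fold change 0.48, SE 0.078, edgeR adjusted p = 0.00379). Its relative Nolc1, a chaperone of snoRNPs, had 460.0 and 452 CPM in Smg6-deficient cells, against 372 and 324 CPM in wild-type cells (log2 fold change 0.39, SE 0.096, edgeR adjusted p = 0.0185). The helicase Ddx21 had 885 and 887 CPM in Smg6-deficient cells, against 722 and 746 CPM in wild-type cells (log2 fold change 0.27, SE 0.082, edgeR adjusted p = 0.038). The groups did not overlap for any of the 3. The call of Nolc1 ended when Smg6-deficient replicate 1 (edgeR adjusted p = 0.117) or replicate 2 (0.0949) was left out and by limma-trend on RPKM (limma adjusted p = 0.117). That of Ddx21 ended in 8 of the 15 alternatives. These were leaving out Smg6-deficient replicate 1 (edgeR adjusted p = 0.255) or replicate 2 (0.258), limma-trend on RPKM with either pseudocount (limma adjusted p = 0.17 and 0.169), library size alone (edgeR adjusted p = 0.0772), the filter of 50 counts (0.055) and the length correction without (0.18 on the log2 scale, 0.103) and with the replicate number as a term (0.122).

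Ncl and Npm1 went in opposite directions without passing. Ncl had 2654 and 2700.2 CPM in Smg6-deficient cells, against 2499 and 2079 CPM in wild-type cells (log2 fold change 0.23, edgeR adjusted p = 0.156), and it was called in a fit that lacked wild-type replicate 1 (0.37 on the log2 scale, edgeR adjusted p = 0.00632). Npm1 had 898 and 900.0 CPM in Smg6-deficient cells, against 1110.0 and 1035 CPM in wild-type cells (log2 fold change -0.26, SE 0.086, edgeR adjusted p = 0.0547). It was called lower in 7 of the 15 alternatives, among them DESeq2 (DESeq2 adjusted p = 0.0248) and the gene length correction (edgeR adjusted p = 0.0238). As many as 4 processed pseudogenes match parts of the Npm1 transcript, and 1 of them, Gm14681, held 28525 and 24870 counts in Smg6-deficient cells and 31421 and 28672 in wild-type cells, so the count of Npm1 is uncertain.

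The small subunit processome and its partners made up 12 of the factors, of which 7 rose and 0 fell (median log2 fold change 0.36). Among the genes with the highest mean levels, 26.7% were higher and 19.3% lower. Utp20 (chromosome 10, 88746607 to 88826804, minus strand), a large scaffold protein of HEAT repeats, had 424 and 437 CPM in Smg6-deficient cells, against 212 and 241 CPM in wild-type cells (log2 fold change 0.93, SE 0.093, edgeR adjusted p = 0.00075). Rrp12, which acts in maturation and export of pre-ribosomes in yeast, had 170.0 and 167 CPM in Smg6-deficient cells, against 107 and 104 CPM in wild-type cells (log2 fold change 0.68, SE 0.075, edgeR adjusted p = 0.00106). Heatr1, whose yeast counterpart Utp10 joins the processome early, had 364 and 365 CPM in Smg6-deficient cells, against 233 and 242 CPM in wild-type cells (log2 fold change 0.62, SE 0.078, edgeR adjusted p = 0.00164). In each of these the Smg6-deficient libraries lay close together and above both wild-type libraries, and all 3 were called in every alternative.

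Of the other 4 that rose, Imp4, a partner of Mphosph10, had a log2 fold change of 0.56 (edgeR adjusted p = 0.0037) and was called in every alternative. Noc4l, which binds Nop14, had 0.53 (edgeR adjusted p = 0.0192). Rrp9, a protein of the U3 snoRNP, had 0.37 (edgeR adjusted p = 0.0202), and Wdr43, a processome subunit, had 0.34 (edgeR adjusted p = 0.0222). The calls of Rrp9 and Wdr43 ended with Smg6-deficient replicate 1 or 2 left out (edgeR adjusted p = 0.105 to 0.152) and that of Noc4l without replicate 1 (edgeR adjusted p = 0.0539), and all 3 also by limma-trend on RPKM. Wdr75, at a log2 fold change of 0.21, missed the threshold (edgeR adjusted p = 0.0679), though it passed without wild-type replicate 1 (edgeR adjusted p = 0.0233). Nop14 (0.07), Wdr3 (0.06) and Imp3 (-0.02) were near 0. Mphosph10, the scaffold that Imp3 and Imp4 bind, had -0.16 (edgeR adjusted p = 0.202), and it was called lower when wild-type replicate 2 was left out (-0.25, edgeR adjusted p = 0.0354) and had -0.087 without wild-type replicate 1. Over all 4 libraries Imp3, Imp4 and Mphosph10, known to form 1 complex, had log2 fold changes of -0.02, 0.56 and -0.16. The value of Noc4l was 0.32 without wild-type replicate 2 and 0.74 without wild-type replicate 1. In GENCODE M21, exons of Imp4 overlap a gene on the other strand, Gm28306. Whether reads of Gm28306 entered the deposited count of Imp4 is not known.

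Of the 12 factors of large subunit assembly, 5 rose and 0 fell (median log2 fold change 0.21). Among the genes with the highest mean levels, 26.7% were higher and 19.3% lower, and whether this role differs from them was not tested. Noc3l, which pairs with Noc2l on late nucleolar particles in yeast, had 153 and 164 CPM in Smg6-deficient cells, against 109 and 104 CPM in wild-type cells (log2 fold change 0.57, SE 0.080, edgeR adjusted p = 0.00234). Gnl3, the GTP-binding protein nucleostemin, which is abundant in stem cells, had 409 and 434 CPM in Smg6-deficient cells, against 294 and 288 CPM in wild-type cells (log2 fold change 0.53, SE 0.082, edgeR adjusted p = 0.00326). Nop2, a methyltransferase of large subunit rRNA, had 259 and 253 CPM in Smg6-deficient cells, against 199.9 and 184 CPM in wild-type cells (log2 fold change 0.42, SE 0.083, edgeR adjusted p = 0.00868). None of the 3 overlapped between groups. The call of Nop2 ended without Smg6-deficient replicate 1 (edgeR adjusted p = 0.0802) or replicate 2 (0.0593) and by limma-trend on RPKM (limma adjusted p = 0.0711).

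Bop1, Pes1 and Wdr12 form the PeBoW complex, needed for processing of large subunit rRNA, and they differed. Bop1 rose by a log2 fold change of 0.51 (SE 0.14, edgeR adjusted p = 0.0257), which missed the threshold when Smg6-deficient replicate 1 was left out (edgeR adjusted p = 0.0752) and by limma-trend on RPKM (limma adjusted p = 0.121). Its value was 0.30 without wild-type replicate 2 and 0.74 without wild-type replicate 1. Pes1 had -0.01 (edgeR adjusted p = 0.91) and Wdr12 had 0.11 (edgeR adjusted p = 0.364), and other genes match 60.5% of the Pes1 transcript, 61.1% of that of Imp3 and 59.0% of that of Mrto4. A processed pseudogene, Gm4879, matches 1272 nt of the Wdr12 transcript at 97.7% identity. It held 4737 and 3957 counts in Smg6-deficient cells and 4249 and 3513 in wild-type cells. Wdr12 itself held 11193 and 9741 counts in Smg6-deficient cells and 9960 and 8585 in wild-type cells. Nop16 rose by 0.51 (edgeR adjusted p = 0.0157), which missed the threshold in the absence of Smg6-deficient replicate 2 (0.49 on the log2 scale) and by limma-trend on RPKM (limma adjusted p = 0.0849). The value of Nop16 was 0.33 without wild-type replicate 2 and 0.68 without wild-type replicate 1. Noc2l, the partner of Noc3l, had 0.28, just outside the threshold (edgeR adjusted p = 0.0517), and it was called by limma-voom (limma adjusted p = 0.0449), by edgeR with the replicate number as a term (0.0238) and by edgeR without wild-type replicate 1 (0.00335). Mrto4 (0.14), Ppan (0.12), Gnl2 (0.07) and Rrs1 (-0.16) did not pass, and Mrto4 passed without wild-type replicate 1 (0.24 on the log2 scale, edgeR adjusted p = 0.0425) and Rrs1 without wild-type replicate 2 (-0.23 on the log2 scale, edgeR adjusted p = 0.0266).

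Relative to the wild-type mean, the factors' median log2 level was 0.25 in both Smg6-deficient libraries, and 0.06 in wild-type replicate 1 and -0.06 in replicate 2. The median log2 fold change was 0.31 without wild-type replicate 1 and 0.17 without replicate 2. Wild-type replicate 2, where the factors stood lower, also had the lower sum of each of the 3 marker lists (3609, 713 and 15.3 CPM for pluripotent, fibroblast and endoderm markers, beside 4174, 965 and 19.5 CPM in replicate 1). The part of these differences in the factors' level was not tested.

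The count of raised factors was lowest in the settings that called the fewest genes higher, but elsewhere did not move in step with that number. It was 24 without wild-type replicate 1, where 26.0% of all genes were higher, 20 with the replicate number as a term (24.3%) and 20 by limma-voom (20.9%). It was 19 with DESeq2 size factors (20.1%), by the DESeq2 Wald test (20.3%), with no filter on low counts (13.7%), without wild-type replicate 2 (23.4%) and with the replicate number and the length correction together (21.6%). It was 18 with library size alone (18.0%), with the length correction (18.2%) and with a filter of 50 counts in 2 libraries (21.6%). The lowest counts were 13 without Smg6-deficient replicate 2 (12.4%), 12 without Smg6-deficient replicate 1 (12.2%) and 11 by limma-trend on log2(RPKM + 1) (12.9%) or log2(RPKM + 0.1) (12.6%). Of the 40 factors, 5 were lower without wild-type replicate 2 (22.2% of all genes), 3 with library size alone (22.2%), the filter of 50 counts (23.0%), the DESeq2 Wald test (19.0%), limma-voom (19.1%), the length correction (20.9%) and the length correction with the replicate number (23.8%). The count lower was 2 with DESeq2 size factors (19.7%), no filter (12.3%), the replicate number (22.1%), limma-trend on log2(RPKM + 1) (15.1%) and without wild-type replicate 1 (23.4%), and 1 by limma-trend on log2(RPKM + 0.1) (15.4%), without Smg6-deficient replicate 1 (10.8%) and without Smg6-deficient replicate 2 (10.6%). The share of factors raised stood above the share of all genes in each of these settings. These settings refit the same libraries and are not independent of each other, and the list was chosen with earlier results of these data known. Shares among the genes with the highest mean levels, the closer background, were not computed for each setting.

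The rest of the pathway was described by 121 further genes for ribosome biogenesis, of which 120 matched and were tested. Of these, 43 were higher and 8 lower, a larger share of rises and a smaller share of falls than the 20.5% and 19.2% of all genes, with a median log2 fold change of 0.14. Among the 5224 genes with the highest mean levels, 26.7% were higher and 19.3% lower. Scaled by library size alone, 37 were higher and 15 lower, against 18.0% and 22.2% of all genes. Among 11 further genes for RNA polymerase I transcription, 6 rose and 2 fell. Taf1a, a subunit of the same selectivity factor as Taf1d, had 51.5 and 50.2 CPM in Smg6-deficient cells, against 21.4 and 20.8 CPM in wild-type cells (log2 fold change 1.27, SE 0.084, edgeR adjusted p = 0.000246). The termination factor Ttf1 rose by 1.06. Taf1c, another subunit of that factor, rose by 0.37, while Taf1b had -0.33 (edgeR adjusted p = 0.0467), a fall lost in 7 alternatives and standing at -0.19 without wild-type replicate 1. The 4 genes of the selectivity factor on these lists, Taf1a, Taf1b, Taf1c and Taf1d, therefore had log2 fold changes of 1.27, -0.33, 0.37 and 2.04. The polymerase subunit Polr1f fell by 0.35 on the log2 scale, which was not called leaving out Smg6-deficient replicate 1 (edgeR adjusted p = 0.155) or replicate 2 (0.0938).

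Beside the role counts that follow, 20.5% of all genes were higher and 19.2% lower, and some roles stand near or below these shares. Among 11 genes for snoRNP assembly, 3 rose and 0 fell. Naf1, which loads the H/ACA core, rose by 0.71 on the log2 scale, and Ruvbl2, an ATPase of the assembly machinery, by 0.68. Of 40 further genes of the small subunit processome, 13 rose and 3 fell, with Utp25 at 0.91, Pdcd11 at 0.67, Utp23 at -0.51 and the X-linked Utp14a at -0.45. The call of Utp14a ended without Smg6-deficient replicate 1 (edgeR adjusted p = 0.0653). Of 45 further genes of large subunit assembly, 19 rose and 2 fell. Mdn1, a giant ATPase that strips assembly factors from the particle, rose by 1.11 with wild-type libraries far apart (905 and 935 CPM in Smg6-deficient cells, against 339 and 511 CPM in wild-type cells). Surf6 rose by 0.92, the X-linked Las1l fell by 0.74, and Nmd3, the export adaptor, fell by 0.38, not called with Smg6-deficient replicate 1 (edgeR adjusted p = 0.129) or replicate 2 (0.0882) left out or by limma-trend on RPKM (limma adjusted p = 0.0597). Of 13 exosome genes, 2 rose and 1 fell, with Exosc10, the nuclear catalytic subunit, at 0.60, Exosc2 at 0.30, a call lost in 9 of the 15 alternatives (0.19 without wild-type replicate 2), and C1d at -0.51, lost when Smg6-deficient replicate 1 was omitted (edgeR adjusted p = 0.0574). All 3 X-linked genes of both lists, Dkc1, Utp14a and Las1l, were lower.

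**Figure D4:**
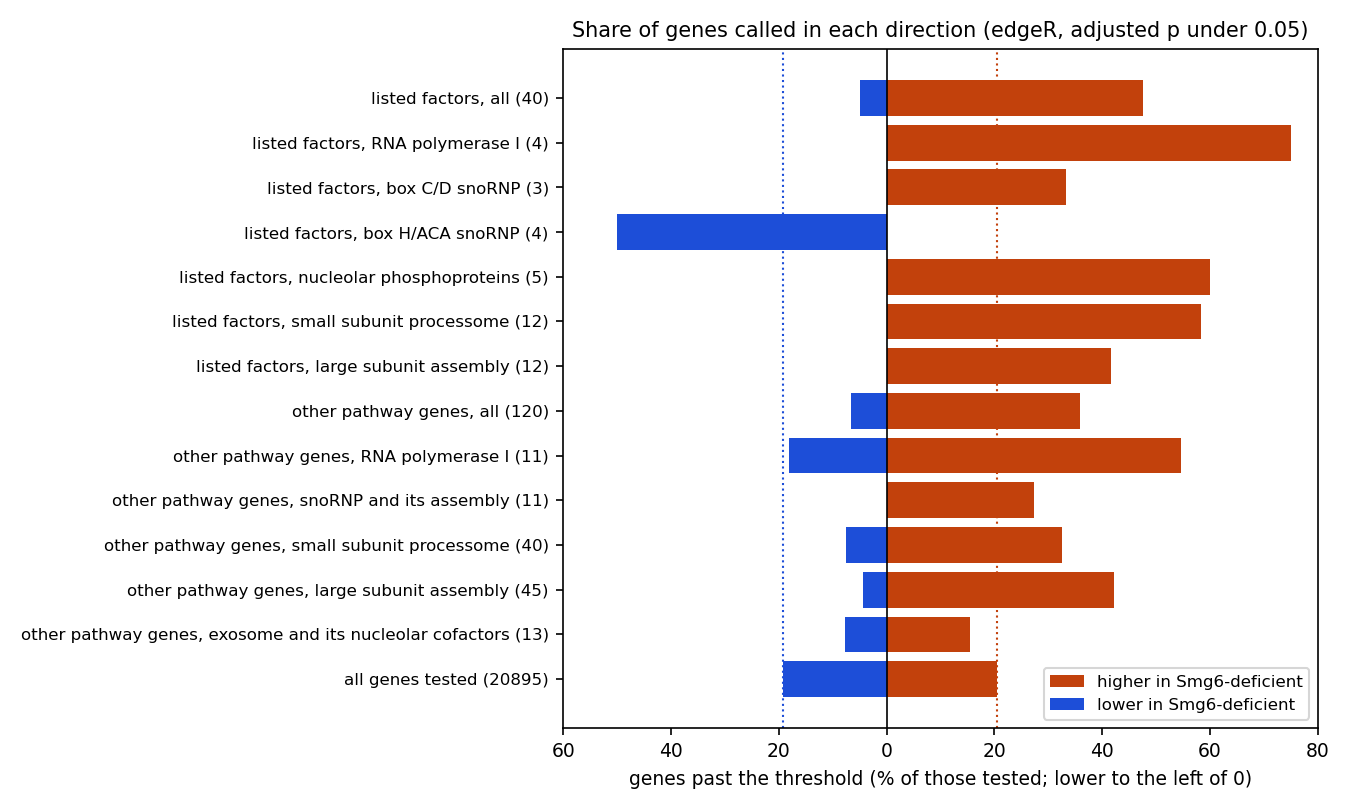
Percent of the genes tested that were called higher (right) and lower (left) in Smg6-deficient cells, by role, for the 40 listed factors, the 120 other pathway genes and all 20895 genes, with dotted lines at the shares over all genes and the number tested in brackets. Box H/ACA proteins are the role with falls and no rises among the listed factors. The falls are those of the X-linked Dkc1 and of Nop10, and neither was called in all 15 alternatives.

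Myc stood at 74.6 and 75.5 CPM in Smg6-deficient cells, against 31.3 and 21.0 CPM in wild-type cells (log2 fold change 1.52, SE 0.18, edgeR adjusted p = 0.00122). The letters CACGTG, the E-box that Myc and other factors bind and that reads the same on both strands, were searched in RefSeq promoter windows (GRCm38.p6, from 250 bases before to 50 after the start), which 33 of the 40 factors had. They were present for 5 of the 33 (15.2%), and for 8.09% of 27025 genes with such a window. The 27025 include genes that were not tested here, whereas all 33 factors were tested. Among tested genes, 1453 had the letters and 11977 had a window without them, a closer background. The share with the letters there is higher than 8.09%, so the difference from the 15.2% of the factors is smaller. These windows are shown with the E-box in capitals.

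Imp4 (chr1:34439696-34439725, plus strand): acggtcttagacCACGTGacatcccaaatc
Nop2 (chr6:125131811-125131840, plus strand): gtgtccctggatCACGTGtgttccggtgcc
Utp20 (chr10:88826765-88826794, minus strand): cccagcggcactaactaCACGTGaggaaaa
Pes1 (chr11:3963965-3963994, plus strand): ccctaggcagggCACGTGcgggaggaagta
Wdr43 (chr17:71616220-71616249, plus strand): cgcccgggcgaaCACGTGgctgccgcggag

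Its first base lay 121 and 60 bases before the start in Imp4 and Nop2, and at base 3, 18 and 38 after it in Pes1, Wdr43 and Utp20. Of these 5 factors, Imp4, Nop2, Utp20 and Wdr43 rose and Pes1 did not pass, and of 1453 tested genes with the letters in their window 24.4% were higher and 21.1% lower. Of the 28 with a window and no such match, 12 rose and 2 fell, and of 11977 such genes 23.4% were higher and 20.0% lower. Whether the factors with the letters differ from those without was not tested. A match in letters is a description of the sequence, and binding was not measured here.

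The median fold change was larger among the longer factors, but Taf1d, with the largest rise, was among the shorter ones. A trend with length among the factors was not tested. The 20 longer factors, by the length that the deposited RPKM values imply, had a median log2 fold change of 0.31 and 11 rises, and the 20 shorter ones 0.18 and 8 rises. With a correction for length fitted over all genes, the medians were 0.23 and 0.21, with 10 and 8 rises. The corrected log2 fold changes of the 3 longest of the raised factors were 0.75 for Utp20, 0.48 for Heatr1 and 0.40 for Polr1a, all still called.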

How the data were processed

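RNA was extracted with TRIzol and prepared with a TruSeq RNA kit (version 2), and single reads of 50 nt were sequenced, per the labels' protocols. This kit does not mark strand. The submitters' processing notes name TopHat2 2.0.9 and mm10. For the counter, the annotation and multiply aligned reads, the step is not given in the sources used here. Per gene and library, the authors deposited a count of reads in whole numbers, and beside it an RPKM value. Symbols and positions came from GENCODE M21; 95.2% of identifiers had one.

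The counts passed through filterByExpr at a minimum of 10 and TMM scaling. The quasi-likelihood test of edgeR 4.0.16, run in R 4.3.3, had genotype as the only term, with Benjamini-Hochberg adjustment over 20895 genes at 0.05. Each SE is the size of the log2 fold change divided by the root of its F statistic. The common biological coefficient of variation was 0.118 with 2 residual degrees of freedom. Alternatives changed the scaling, the filter, the test (limma 3.58.1, DESeq2 1.42.0), added the replicate number or a length correction, or left out 1 library; limma-trend fold changes are on the log2(RPKM + pseudocount) scale (1 or 0.1). The length correction was a lowess curve on gene length per library. On counts simulated for this comparison over 20895 genes, 91 of 100 genes changed by 1 on the log2 scale and 37 of 100 changed by 0.5 were recovered. There were 15 false calls. All other genes were unchanged in the simulation, unlike the data, so recovery in the data may differ. Near-identical copies were matches by blastn of at least 95% identity and 100 nt among annotated transcripts.

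Every factor is named; values per library are given for up to 3 per role with the smallest adjusted p (where fewer than 2 passed, the 2 most abundant) and for others where a result turned on them, and of the other pathway genes the largest 2 rises and 2 falls per role, with Taf1c added after its value was seen. The members and lists were chosen with earlier results of these data known.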

Additional observations from a re-analysis of the deposited data

How the results depend on the processing

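All 15 alternatives were run, and every called factor kept its direction in all of them. The largest shift of the median over all genes from rescaling was -0.057 (log2), with library size alone. Of the 21 called factors, 21 kept their call with DESeq2 size factors, no filter, the DESeq2 Wald test, limma-voom, the replicate block and without either wild-type library, and 12 to 20 in the other settings. By limma-trend on log2(RPKM + 1), 11 factors, 22 other pathway genes and 2700 genes in all were higher, and 5 other pathway genes lower; on log2(RPKM + 0.1) these were 11, 22, 2643 and 5, with 1 factor lower. Other pathway genes lower numbered 15 with library size alone, 14 with a filter of 50 counts in 2 libraries and 17 with the replicate block and length correction together. With the replicate block alone, 20 factors were higher and 2 lower, and 5074 and 4613 of all genes; the replicate numbers are not stated to mark a shared batch, and the correlation across genes of replicate 1 minus replicate 2 between the groups was 0.155 over all genes and 0.289 over the factors. With 2 pairs these values do not establish or exclude a pairing. Leaving out 1 library at a time gave 12 to 24 factors higher and 1 to 5 lower, 23 to 59 other pathway genes higher and 2 to 21 lower, 2540 to 5435 of all genes higher and 2206 to 4883 lower, and a factors' median of 0.17 to 0.31. A lone library was taken to vary like the pair in the other group.

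Signs turned for 7 factors that were never called in these settings. Nhp2 and Gar1 turned with library size alone (-0.018 and -0.023), the filter of 50 counts (-0.0035 and -0.0089), log2(RPKM + 1) (-0.0047 and -0.0075), log2(RPKM + 0.1) (-0.0047 and -0.0076), and with 1 library left out ranged from -0.059 to 0.12 and from -0.093 to 0.15. Wdr3, Imp3 and Gnl2 turned with the length correction (-0.041, 0.11 and -0.0060), also with the replicate block (-0.040, 0.11 and -0.0057). With 1 library left out, the values of Ubtf ranged from -0.17 to 0.0090, of Imp3 from -0.14 to 0.089, of Pes1 from -0.11 to 0.071 and of Wdr3 from -0.028 to 0.14. The cause was not tested. In the simulation, changes of 0.5 on the log2 scale were mostly missed. Few genes were changed there, and many more were called in the data. Its recovery therefore does not give the sensitivity for these factors, of which Ddx21 was called at 0.27. The largest absolute log2 fold change among factors not called was 0.28. With 2 libraries per group, a factor that did not pass is not shown to be unchanged.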
